A study of Homo sapiens with 3 samples.

Results

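Interferon-induced genes are switched on when cells meet a virus or an interferon, and 10 of them were followed here through 3 populations of human CD31+CD34+ cells that differ in surface CD105: IFIT1, IFIT2, IFIT3, IFIT5, IFI44, IFI6, IFI27, ISG15, MX1 and OAS1. They were taken by symbol from the 18345 genes with a deposited value, and all 10 had a row in each library. IFIT1, IFIT2 and IFI44 were picked for their known rise with CD105 over the 3 libraries, so for these genes each difference and order along the sort is a description and supports nothing. The cells came from the established cell line H1, human embryonic stem cells, after 2 days in 40 ng/ml activin A plus 50 ng/ml BMP4 and 3 days in 40 ng/ml VEGF plus 50 ng/ml bFGF, and the labels call them HEPs of day 4 of hematopoietic differentiation. Sorting by surface CD105 (endoglin) gave the populations CD105neg, CD105low and CD105high, which share the line, the culture and the CD31+CD34+ gate. Each population had 1 RNA-seq library. No difference below has a replicate check, none has a p-value, and each comparison is one of libraries.

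Type I interferons bind the receptor pair IFNAR1 and IFNAR2, whose kinases TYK2 and JAK1 activate a complex of STAT and IRF proteins. That complex binds the interferon-stimulated response element in the promoters of target genes. The IFIT proteins bind viral RNA or parts of the translation machinery, ISG15 is a ubiquitin-like protein that is attached to other proteins, MX1 is a dynamin-like GTPase that blocks incoming viruses, and OAS1 senses double-stranded RNA and activates RNase L. IFI6 and IFI27 are small hydrophobic proteins of the same family, and IFI44 is a cytoplasmic protein with antiviral activity. Embryonic stem cells are known for a weak response to interferon, which strengthens as they differentiate.

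The promoter sequences of the genes are shown because the response element is the site through which the pathway acts on its targets. RefSeq start-site windows, 250 bases before to 50 bases after each annotated start on GRCh38.p14, were found for 9 of the 10 genes; IFIT2 had none. They were searched on both strands for the core of the element, GAAANNGAAA. Printed below are the 200 bases before the start, with each match in capitals; a match on the other strand reads TTTCNNTTTC. The genes printed first were the ones that followed the order of the sort.
IFIT1, chr10:89392423-89392622, plus strand: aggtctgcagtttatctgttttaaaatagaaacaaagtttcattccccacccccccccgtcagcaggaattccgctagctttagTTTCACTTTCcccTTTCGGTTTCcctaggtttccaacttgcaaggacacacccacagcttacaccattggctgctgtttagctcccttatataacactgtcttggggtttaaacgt
IFIT3, chr10:89327797-89327996, plus strand: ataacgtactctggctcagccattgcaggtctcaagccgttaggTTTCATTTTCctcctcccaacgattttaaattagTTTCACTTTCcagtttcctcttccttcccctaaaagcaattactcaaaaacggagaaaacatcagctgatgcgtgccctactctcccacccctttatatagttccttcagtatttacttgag
IFI44, chr1:78649589-78649788, plus strand: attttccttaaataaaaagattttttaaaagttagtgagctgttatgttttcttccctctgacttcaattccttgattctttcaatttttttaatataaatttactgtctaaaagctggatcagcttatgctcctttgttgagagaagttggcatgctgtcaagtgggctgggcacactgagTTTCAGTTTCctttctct
ISG15, chr1:1013297-1013496, plus strand: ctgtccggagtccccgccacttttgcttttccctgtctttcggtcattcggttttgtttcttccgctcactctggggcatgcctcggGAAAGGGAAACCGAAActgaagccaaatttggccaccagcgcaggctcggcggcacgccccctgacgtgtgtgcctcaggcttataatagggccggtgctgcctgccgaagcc
The next 3 carry the same letters but had levels that stayed within 1.5-fold across the libraries.
IFIT5, chr10:89414368-89414567, plus strand: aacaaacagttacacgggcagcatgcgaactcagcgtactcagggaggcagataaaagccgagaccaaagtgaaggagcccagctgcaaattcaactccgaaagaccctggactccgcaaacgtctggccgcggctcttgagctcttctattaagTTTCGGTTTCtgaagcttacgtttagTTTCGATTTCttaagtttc
IFI6, chr1:27672193-27672392, minus strand: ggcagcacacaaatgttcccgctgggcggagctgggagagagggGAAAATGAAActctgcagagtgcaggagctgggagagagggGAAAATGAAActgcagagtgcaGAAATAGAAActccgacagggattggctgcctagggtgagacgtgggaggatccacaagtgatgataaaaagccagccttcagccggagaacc
IFI27, chr14:94110536-94110735, plus strand: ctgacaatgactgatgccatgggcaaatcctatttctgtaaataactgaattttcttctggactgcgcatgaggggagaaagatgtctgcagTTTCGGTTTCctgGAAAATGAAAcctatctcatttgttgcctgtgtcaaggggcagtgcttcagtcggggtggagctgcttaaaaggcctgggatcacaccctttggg
The IFIT1 stretch holds 2 matches, from base -116 to -107 and from base -103 to -94 counted from the start. In ISG15 the 2 matches overlap, and together they run from base -113 to -98. IFI6 has 3 matches, IFI27 has 2, and IFIT5 has 3 in its window, of which the one from base -4 to 6 crosses the start and is not marked. Of the 9 genes with a window, 8 held at least 1 match, and OAS1 held none. Among all 27305 genes with a window, 4.38% held one, and among all 35116 windows 3.57%. Of 109 other interferon genes with a window 42.2% held one, and of the 31 in the list of other interferon-induced genes 64.5%. The members were taken as known interferon-induced genes, so a match was likely beforehand and nothing is read from their count. A match is a run of letters and not a measured binding site, and no match says only that these letters are not in this window. The numbers of matches per window overlapped between the genes that followed the sort and those that did not. The part of the element in the levels was not tested. IFIT5, IFI6 and IFI27 hold at least as many as IFIT1, while IFI44, which followed the sort, and MX1, which did not, hold at most 1 per window. Of the 3 windows of MX1, 2 held a match, and its stretch is not printed. IFIT2, which followed the sort, could not be compared.

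**Figure D1:**
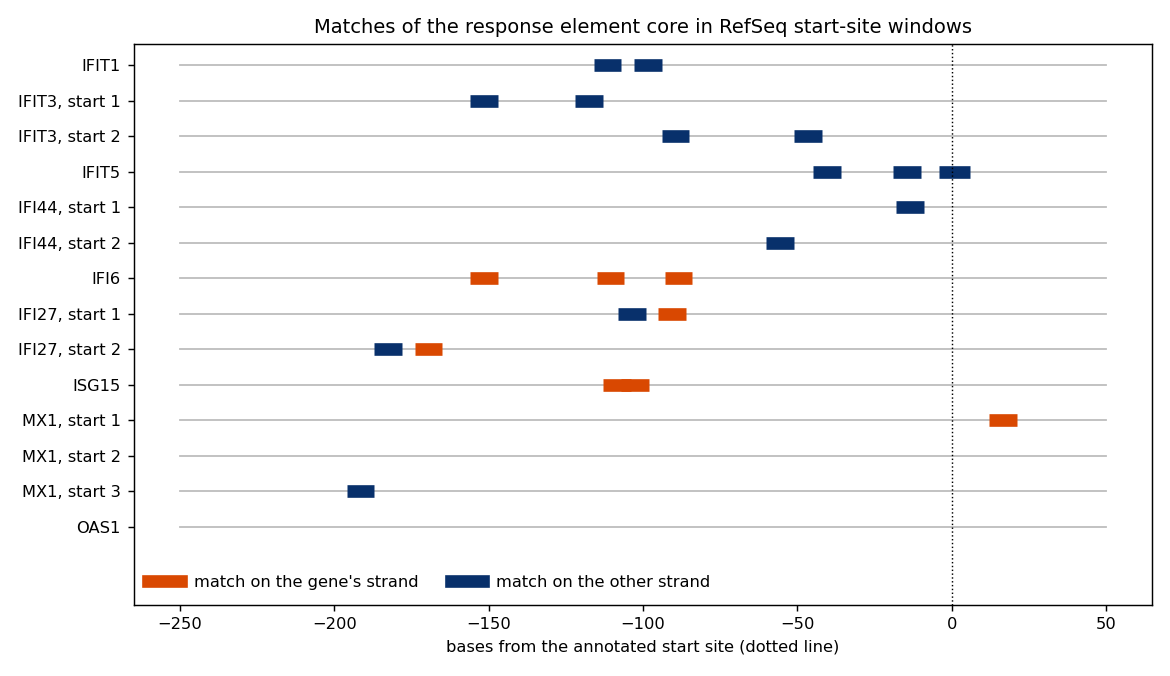
Position of each match of the response element core (thick bars, coloured by strand) in the start-site windows of 9 genes, from 250 bases before to 50 bases after the start; the x axis is in bases and each grey line is 1 annotated start. The pairs in IFIT1 and ISG15 lie between base -116 and base -94, the matches of IFIT5 lie next to the start, and OAS1 has none.

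The deposited values were treated as FPKM, a unit scaled by transcript length, so levels can be set side by side between genes. ENG, which encodes CD105, followed the sort, with 2.12 in CD105neg, 8.56 in CD105low and 13.8 FPKM in CD105high. PECAM1 (CD31) and CD34 were present in all 3 libraries, at no less than 29.9 and 21.0 FPKM. In the CD105neg table the header of the value column reads CD31+CD105+, against the sample's title, and the title was followed.

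The IFIT genes stand side by side on chromosome 10, and 3 of the 4 followed the order of the sort. IFIT1 (ENSG00000185745.9), which binds viral RNA that lacks the host's cap methylation, stood at 8.57 in CD105neg, 21.2 in CD105low and 36.7 FPKM in CD105high. IFIT2 (ENSG00000119922.9), which forms complexes with IFIT1 and IFIT3, stood at 0.579, 2.02 and 3.17 FPKM in the same order of libraries. IFIT3 (ENSG00000119917.13), which stabilises IFIT1, stood at 1.91 in CD105neg, 4.03 in CD105low and 6.57 FPKM in CD105high. All 3 were lowest in CD105neg and highest in CD105high, with CD105low between. The plain ratio of CD105high to CD105neg was 4.28 for IFIT1, 5.47 for IFIT2 and 3.44 for IFIT3. On the log2 scale of FPKM + 1, which understates the change of low genes, the differences were 1.98, 1.40 and 1.38.

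IFIT5 (ENSG00000152778.8), an RNA-binding member of the same family, did not share this pattern. It stood at 2.73 in CD105neg, 3.09 in CD105low and 3.05 FPKM in CD105high. In CD105neg it was above IFIT2 and IFIT3, and in CD105high it was below both. IFIT1B, a relative of IFIT1 that lies between IFIT3 and IFIT1, was listed at 0 in CD105neg and CD105low and at 0.00638 FPKM in CD105high. Of the coding genes on either side of the cluster in the GENCODE order, LIPA, lysosomal acid lipase, stood at 22.2 in CD105high against 13.7 FPKM in CD105neg (log2 fold change 0.66). LIPA lies on the opposite strand across IFIT2, IFIT3, IFIT1B and IFIT1, and the library kit does not mark strand. LIPA exons cover no annotated exon base of IFIT1 or IFIT3 and 1.58% of those of IFIT2. The part of LIPA reads, spliced or not, in the IFIT values was not tested. SLC16A12, on the other side, was at or below 0.0512 FPKM in every library, and PANK1 stood at 4.84 in CD105high against 4.98 FPKM in CD105neg. Exons of AL353751.1, a non-coding gene not analysed here, cover 8.68% of the exon bases of IFIT2.

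ISG15 and IFI44 followed the sort as well. ISG15 (ENSG00000187608.8) was the most abundant of the 10 genes in each library, at 71.2 in CD105neg, 111 in CD105low and 156 FPKM in CD105high (log2 fold change of CD105high over CD105neg 1.12). IFI44 (ENSG00000137965.10) stood at 0.697, 1.86 and 3.64 FPKM (1.45). ISG15 made up 72.2% of the summed FPKM of the 10 genes in CD105high and 77.5% in CD105neg, and IFIT1 17.0% and 9.33%. The sum was 91.9 in CD105neg, 151 in CD105low and 216 FPKM in CD105high. IFI44L, the close relative of IFI44, was listed at 0 in CD105high and CD105neg and at 0.00401 FPKM in CD105low.

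The remaining members did not follow the order of the sort, and none exceeded 4.75 FPKM. IFIT2 and IFI44, which did follow it, were below IFI6 in each library. IFI6 (ENSG00000126709.14) stood at 3.71 in CD105neg, 4.75 in CD105low and 4.09 FPKM in CD105high, highest in the middle population. IFI27 (ENSG00000165949.12) stood at 1.39, 1.09 and 1.37 FPKM, lowest in the middle. OAS1 (ENSG00000089127.12) stood at 0.963, 0.878 and 1.09 FPKM. These 3 genes were within 1.5-fold in every pair of libraries on the log2 scale of FPKM + 1. MX1 (ENSG00000157601.13) was the lowest member, at 0.167 in CD105neg, 0.442 in CD105low and 0.353 FPKM in CD105high, never reached 1 FPKM, and was left out of the counts below. Its plain ratio of CD105high to CD105neg was 2.11, and no counting error can be given for so low a value, since fragment numbers are not analysed here.

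**Figure D2:**
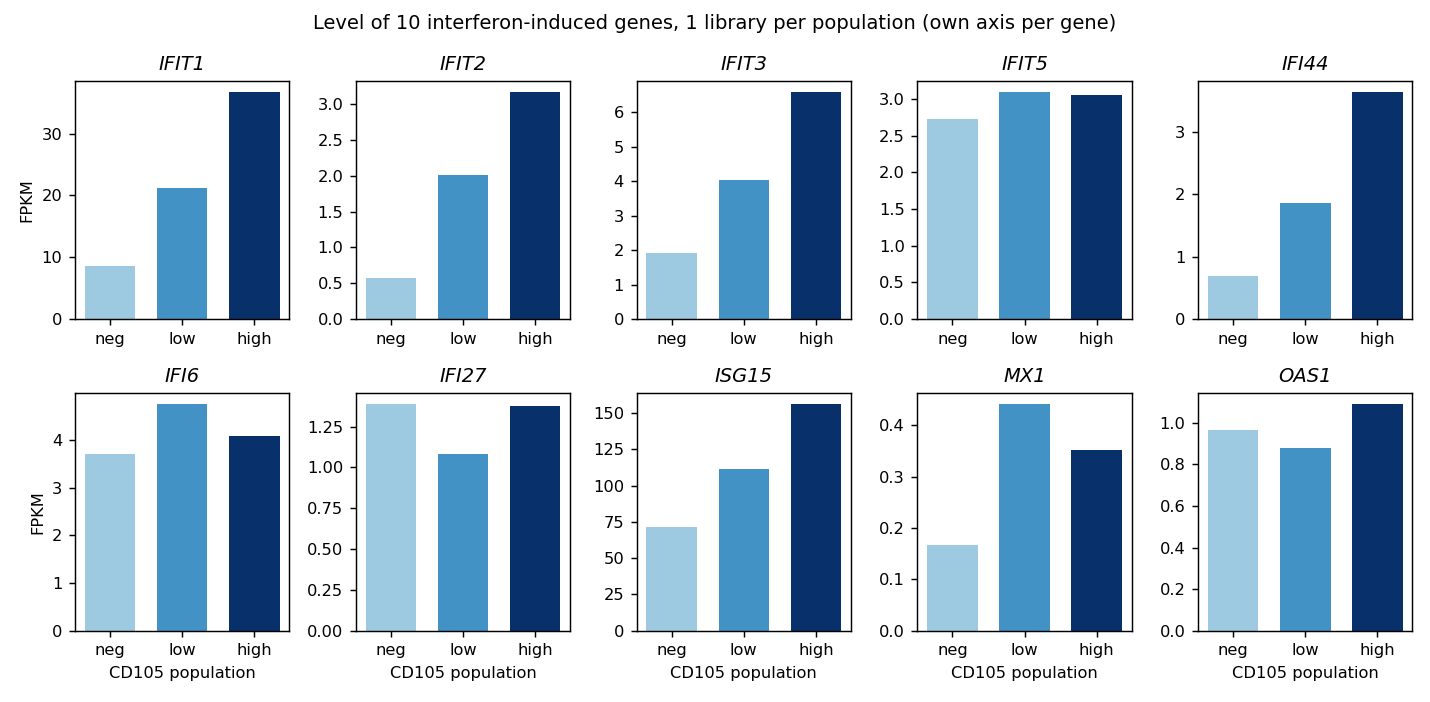
Level of each of the 10 genes in FPKM (y axis, own linear scale from 0 for each gene) in the CD105neg, CD105low and CD105high libraries; each bar is 1 library, with no error bar because there are no replicates. IFIT1, IFIT2, IFIT3, IFI44 and ISG15 climb from left to right, and IFIT5, IFI6, IFI27, MX1 and OAS1 do not.

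The order of the levels among the 10 genes differed between CD105high and CD105neg. ISG15 and IFIT1 were the highest in all 3 libraries. In CD105neg they were followed by IFI6, IFIT5, IFIT3, IFI27, OAS1, IFI44, IFIT2 and MX1. In CD105high they were followed by IFIT3, IFI6, IFI44, IFIT2, IFIT5, IFI27, OAS1 and MX1, so that IFI44 and IFIT2 stood above IFIT5, IFI27 and OAS1. With 1 library in each group, neighbours in these orders, such as IFIT2 and IFIT5 at 3.17 and 3.05 FPKM in CD105high, cannot be told apart by any spread.

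CD105high against CD105neg spans the sort. A gene was counted as apart when FPKM + 1 differed by at least 1.5-fold, among genes that reached 1 FPKM in any library, which 9 of the 10 members did. IFIT1, IFIT2, IFIT3, IFI44 and ISG15, 5 of the 9, were higher in CD105high and none was lower. Over all 11343 genes that reached 1 FPKM, 5.65% were higher and 6.88% were lower. Since members were chosen on this contrast, nothing is read from that count. IFIT2, IFI44 and OAS1 reached 1 FPKM in some libraries only, each through the populations in which it was higher. The log2 fold change of IFIT1 was exceeded by 32 of the 11343 genes, that of IFI44 by 79, that of IFIT2 by 85, that of IFIT3 by 89 and that of ISG15 by 168. The remaining 4 had log2 fold changes between -0.01 (IFI27) and 0.12 (IFIT5). The sign for IFI27 turns when the libraries are centred on the median gene (0.09).

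**Figure D3:**
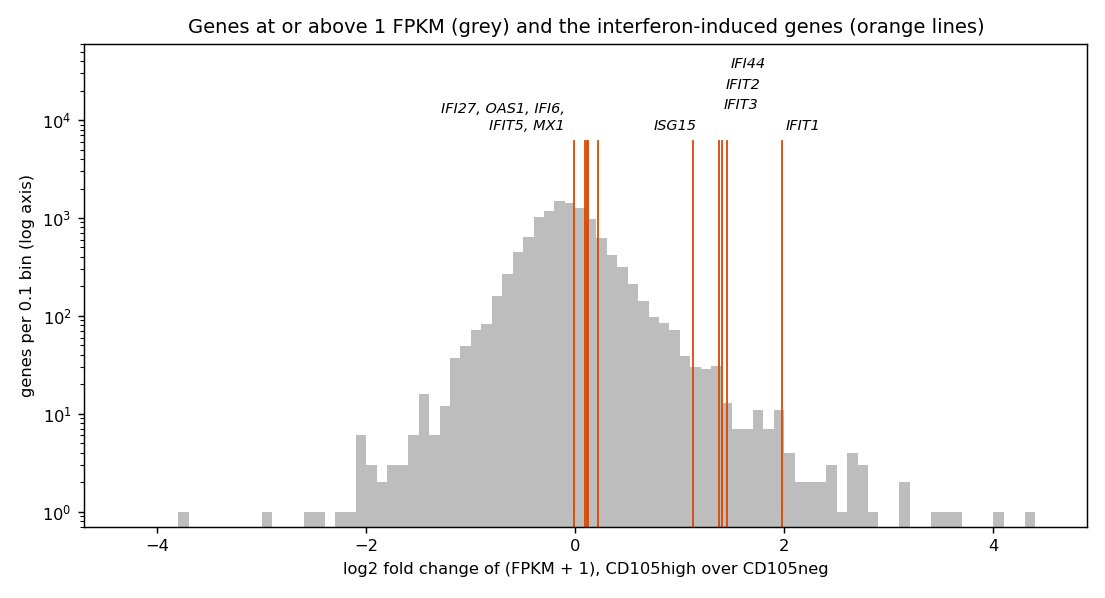
Distribution of the log2 fold change of FPKM + 1, CD105high over CD105neg (x axis), over the 11343 genes at or above 1 FPKM (grey, genes per bin on a log axis), with the 10 interferon-induced genes as orange lines. ISG15, IFIT3, IFIT2, IFI44 and IFIT1 lie between 1.12 and 1.98 in the thin upper tail, and the other members lie between -0.01 and 0.21 within the bulk.

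CD105low against CD105neg gave the same 5 genes. IFIT1, IFIT2, IFIT3, IFI44 and ISG15 were at least 1.5-fold higher in CD105low, with log2 fold changes of 1.21, 0.93, 0.79, 0.75 and 0.64, and no member was lower. Over all genes, 4.13% were higher and 2.18% lower in this comparison. The choice of IFIT1, IFIT2 and IFI44 used this contrast too, and IFIT2 and IFI44 were counted only through libraries in which they were higher than in CD105neg, so nothing is read from the count. IFI6 (0.29), IFIT5 (0.13), OAS1 (-0.06) and IFI27 (-0.20) were within 1.5-fold. This comparison uses the same CD105neg library as the one above, so both would shift with any peculiarity of it. The count was 2, IFIT1 and ISG15, with a pseudocount of 5 or among genes at or above 10 FPKM, and 1, IFIT1, under a 2-fold rule. Over all genes, 715 were apart in the main setting, and 278, 398 and 154 under these settings.

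For CD105high against CD105low, IFIT1, IFIT2, IFIT3, IFI44 and ISG15 had smaller differences than in the other two pairs. IFIT1 stood at 36.7 against 21.2 FPKM (log2 fold change 0.76), IFI44 at 3.64 against 1.86 FPKM (0.70) and IFIT3 at 6.57 against 4.03 FPKM (0.59), and these 3 of the 9 members were at least 1.5-fold higher in CD105high. IFIT3 lies just past the threshold, and ISG15 (0.49) and IFIT2 (0.47) lie below it. Over all genes, 1.18% were higher and 2.19% lower, and as IFIT1 and IFI44 were chosen for rising along the sort, nothing is read from the count here either. No member was lower by 1.5-fold; IFI6 (-0.18) and IFIT5 (-0.02) were slightly below 0, and the sign for IFIT5 turns on centring (0.09). The count was 1 with a pseudocount of 5, 4 on centring, 5 after each library was scaled to a common, higher total, and 0 under a 2-fold rule. Over all genes, 382 were apart in the main setting, and 124, 360, 743 and 74 under these settings. The scaling also raises all values against the fixed pseudocount and minimum, so that 10 members were counted in place of 9.

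**Figure D4:**
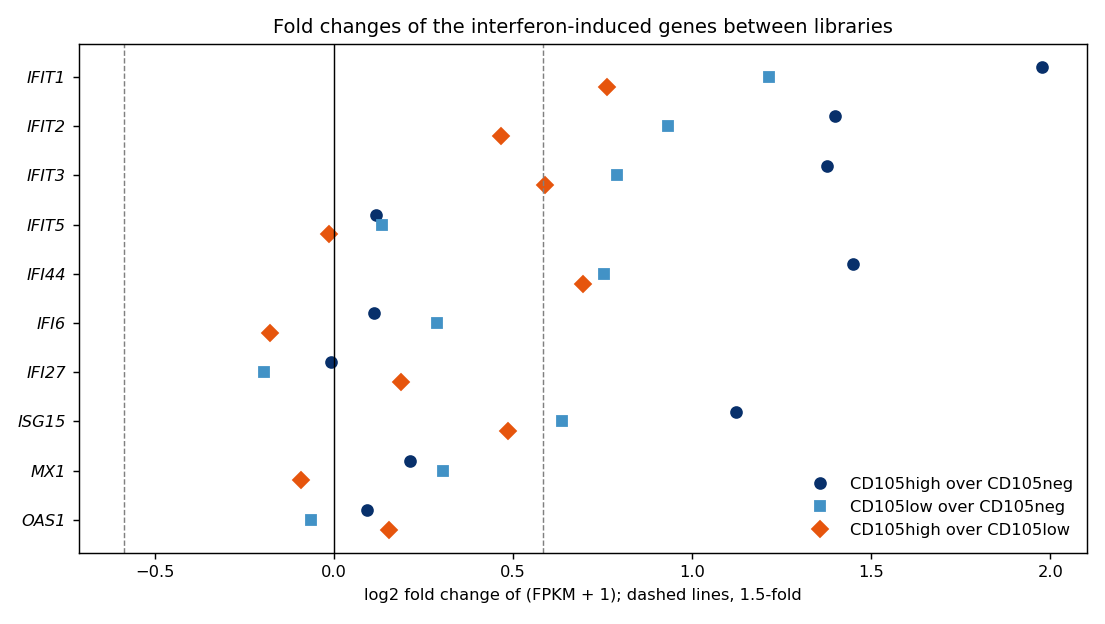
Log2 fold change of FPKM + 1 (x axis) of each member in the 3 pairs of libraries (circles, CD105high over CD105neg; squares, CD105low over CD105neg; diamonds, CD105high over CD105low); dashed lines mark 1.5-fold. For IFIT1, IFIT2, IFIT3, IFI44 and ISG15 all 3 symbols lie to the right of 0, and for the other 5 genes every symbol lies between the dashed lines.

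Of the 10 members, 5 were in the order CD105neg, CD105low, CD105high. Of all genes at or above 1 FPKM, 17.6% were in that order, and 4.95% were in that order and at least 1.5-fold higher in CD105high than in CD105neg, as these 5 were. IFIT1, IFIT2 and IFI44 were chosen for this order, so nothing is read from the count of 5. The median gene was slightly lower in CD105high than in CD105neg, at a log2 fold change of -0.10 among genes at or above 10 FPKM. After centring on it, 856 genes were higher and 493 lower, in place of 641 and 780, and the same 5 members were higher. For CD105high against CD105low, centring gave 209 higher and 151 lower in place of 134 and 248. Scaling each library to a common, higher total moved the median of all genes in CD105high against CD105neg by 0.11.

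The rest of the interferon system was taken from lists of ligands, receptors, sensors, inhibitors and targets. Of 146 listed genes other than the 10 members and the MHC genes, 134 had a value and 77 reached 1 FPKM. The 9 STAT and IRF genes listed were not analysed here. As above, calls of 1.5-fold are made in FPKM + 1, so some genes pass 1.5-fold in the plain ratio only and are not counted. In CD105high against CD105neg, 8 of the 77 were higher, 4 were lower and 65 were neither, with a median log2 fold change of -0.01 beside -0.09 over all genes. As shares, 10.4% were higher and 5.19% lower, beside 5.65% and 6.88% of all genes. Of the 77 genes, 22 (28.6%) were in the order of the sort, beside 17.6% of all genes. The counts were 15 higher and 12 lower with a pseudocount of 0.1, 13 and 4 on centring, and 21 and 7 after scaling each library to a common, higher total. Over all genes the counts moved too, from 641 higher and 780 lower to 852 and 1221, 856 and 493, and 1294 and 946 under these settings.

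The interferon genes themselves were listed at or near 0. Of 21 ligand genes, among them 13 interferon alpha genes, IFNB1, IFNG and 3 interferon lambda genes, 17 were at 0 in CD105high and 18 in CD105neg, and the highest value in any library was 0.0618 FPKM. Both type I receptor chains were low. IFNAR1 stood at 2.89 in CD105high against 2.41 FPKM in CD105neg, and IFNAR2 at 3.54 against 2.05 FPKM, with 81.9% of the sampled sequence of IFNAR2 shared with other annotated genes, so that its value is uncertain. Of 8 receptor and kinase genes that reached 1 FPKM, 1 (12.5%), JAK1, was at least 1.5-fold apart in FPKM + 1. Over all genes at that level, 5.65% were higher and 6.88% lower. JAK1 stood at 70.3 against 38.8 FPKM (log2 fold change 0.84), with 56.2 FPKM in CD105low. The plain ratios of IFNAR2 (1.73) and IL10RB (1.66) also pass 1.5-fold. TYK2 stood at 24.6 against 21.8 FPKM. The interferon gamma receptor genes were higher in level, with IFNGR1 at 42.5 against 31.8 FPKM (0.41) and IFNGR2 at 12.8 against 13.8 FPKM (-0.11). IL10RB, a chain of the interferon lambda receptor, stood at 4.29 against 2.59 FPKM (0.56), with 51.9% of its sampled sequence shared with other genes.

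Of 14 listed genes that sense foreign nucleic acid or relay its signal, 8 reached 1 FPKM, and 1 of these (12.5%) was apart. Over all genes at that level, 5.65% were higher and 6.88% lower. The 1 gene was DDX58, which encodes the RNA sensor RIG-I. It stood at 6.54 in CD105high against 3.18 FPKM in CD105neg (0.85) and at 5.35 FPKM in CD105low. Below 1 FPKM, the sensor genes IFIH1 (0.469 against 0.156 FPKM) and DHX58 (0.877 against 0.4455 FPKM) were higher too. TICAM1 was lower (0.301 against 0.3695 FPKM). MAVS, the adaptor below RIG-I, stood at 17.7 against 17.8 FPKM, and MB21D1, which encodes the DNA sensor cGAS, at 4.15 against 3.73 FPKM. MYD88, the adaptor of Toll-like receptors, stood at 0.808 against 1.55 FPKM (-0.49), and the kinase gene IKBKE at 3.02 against 3.24 FPKM (-0.08). None of the 6 inhibitors that reached 1 FPKM was 1.5-fold apart in FPKM + 1. SOCS3, a feedback inhibitor of JAK signalling, stood at 79.6 against 56.5 FPKM (0.49), and the phosphatase gene PTPN2 at 5.95 against 9.26 FPKM (-0.56, plain ratio 0.643). SOCS1, of the same family as SOCS3, stood at 2.24 against 1.63 FPKM (0.30), and the phosphatase gene PTPN11 at 30.7 against 36.8 FPKM (-0.26). USP18, which removes ISG15 from proteins and restrains the receptor, stayed below 1 FPKM, at 0.322 against 0.185 FPKM.

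ISG15 was the member of its own conjugation pathway that stood apart. The other 5 genes of that list that reached 1 FPKM were within 1.5-fold in FPKM + 1. The plain ratios of HERC5 (1.52) and UBA7 (0.635) do pass 1.5-fold. HERC5, the ligase that attaches ISG15, stood at 8.47 in CD105high against 5.58 FPKM in CD105neg (0.53), the conjugating enzyme gene UBE2L6 at 25.3 against 33.7 FPKM (-0.40), the activating enzyme gene UBA7 at 0.944 against 1.49 FPKM (-0.36) and HERC6 at 1.08 against 0.916 FPKM (0.12). Of the 8 listed near relatives of the members, 3 reached 1 FPKM, and none of these was apart. IFI27L2 stood at 15.1 against 19.2 FPKM (-0.33), IFI27L1 at 10.7 against 12.4 FPKM and OAS3 at 1.93 against 2.17 FPKM. OASL, of the same list and chosen after its values were seen, stood at 0.026 in CD105neg, 0.262 in CD105low and 0.654 FPKM in CD105high. In the same order, OAS2 stood at 0.370, 0.394 and 0.720 FPKM and MX2 at 0.699, 0.919 and 0.721 FPKM. OASL, OAS2 and MX2 were below 1 FPKM in all 3 libraries.

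Of 15 effector genes that act on RNA and reached 1 FPKM, 2 (13.3%) were higher in CD105high than in CD105neg and 1 (6.67%) was lower. Over all genes at or above 1 FPKM, 5.65% were higher and 6.88% lower in this comparison. DDX60, a helicase of the RIG-I pathway, stood at 9.29 in CD105high against 2.21 FPKM in CD105neg (1.68) and at 5.31 FPKM in CD105low. Its relative DDX60L stood at 2.70 against 1.03 FPKM (0.87). APOBEC3G, a cytidine deaminase that restricts retroviruses, was lower, at 2.37 against 5.35 FPKM (-0.91). The remaining 12 were within 1.5-fold in FPKM + 1, among them APOBEC3C at 4.46 against 7.09 FPKM (-0.57, plain ratio 0.629). Of 11 genes for membrane and capsid restriction that reached 1 FPKM, none was higher and 3 (27.3%) were lower. TRIM5, which binds retroviral capsids, stood at 18.7 against 38.9 FPKM (-1.02) and IFITM2 at 8.27 against 16.1 FPKM (-0.89). LY6E, a membrane-anchored protein, stood at 10.9 against 20.4 FPKM (-0.85). TRIM21, an antibody receptor of the cytosol, stood at 3.47 against 4.99 FPKM (-0.42). IFITM1 and IFITM3, which with IFITM2 block viral entry, stood at 47.1 against 61.4 FPKM and 39.03 against 49.9 FPKM. Between 25.6% and 43.3% of the sampled sequence of the 3 IFITM genes, 15.3% of that of TRIM5 and 11.2% of that of APOBEC3G also occurs in other genes, and without genes that share at least 10% the count over the interferon lists was 8 higher and 1 lower.

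Of 21 other interferon-induced genes that reached 1 FPKM, 4 (19%) were higher in CD105high than in CD105neg and none was lower. Their median log2 fold change was 0.04. Over all genes at or above 1 FPKM, 5.65% were higher and 6.88% lower in this comparison. TNFSF10, the death receptor ligand TRAIL, stood at 44.8 against 6.35 FPKM (2.64), with 26.6 FPKM in CD105low. IFI16, a nuclear DNA sensor, stood at 179 against 71.4 FPKM (1.31), with 146 FPKM in CD105low. PARP14, an ADP-ribosyltransferase, stood at 12.9 against 5.81 FPKM (1.03), and the GTPase gene GBP4 at 7.40 against 3.76 FPKM (0.82). Other genes of the same list were listed at 0 in every library, among them the chemokine genes CXCL9 and CXCL10 and the chaperone gene RTP4. Over the whole set, 57 of the 134 genes stayed below 1 FPKM in all 3 libraries and 19 were listed at 0 in all 3. Of 16 listed genes of MHC class I presentation, 12 reached 1 FPKM. Of these 12, 1 (8.33%) was higher in CD105high than in CD105neg, 2 (16.7%) were lower and 9 were neither. B2M, the light chain, was the higher one, at 21.1 in CD105high against 12.2 FPKM in CD105neg (0.74), and was highest in CD105low, at 57.03 FPKM. TAPBP, which encodes tapasin, was lower at 2.50 against 4.96 FPKM (-0.77), and so was the immunoproteasome subunit gene PSMB10 at 3.46 against 5.71 FPKM (-0.59), with 43.7% of its sampled sequence shared with other genes. HLA-E was within 1.5-fold, at 69.5 against 48.6 FPKM (0.51).

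**Figure D5:**
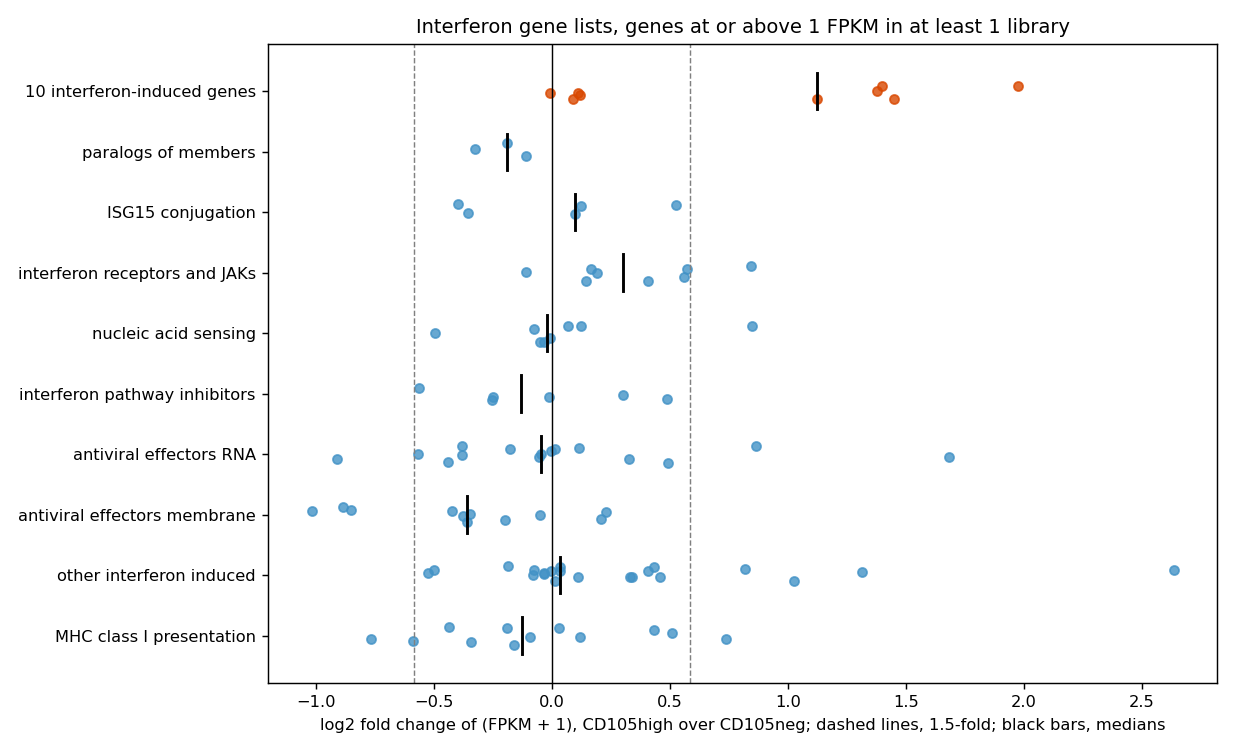
Log2 fold change of FPKM + 1, CD105high over CD105neg (x axis), for genes at or above 1 FPKM in each interferon list; each point is 1 gene, black bars are list medians, and members are shown in the top row only. The members split into a group near 0 and a group above 1, and the other lists have medians between -0.36 and 0.30, with single genes such as TNFSF10 (2.64) and DDX60 (1.68) far to the right.

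The genes most like IFIT1 were sought by the distance between their 2 steps, CD105low minus CD105neg and CD105high minus CD105low on the log2 scale of FPKM + 1, over the 3 libraries. The 5 nearest genes outside the members were TMEM204, EMP1, THBD, KCNJ2 and SELENOP, at distances of 0.022, 0.051, 0.088, 0.113 and 0.134. TMEM204, a membrane protein gene, stood at 4.46 in CD105neg, 11.8 in CD105low and 20.6 FPKM in CD105high. THBD, which encodes thrombomodulin of the endothelial surface, stood at 3.33, 8.79 and 14.7 FPKM. SELENOP, a selenium carrier, shares 47.2% of its sampled sequence with other genes.

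Markers of the cell types that the gate could hold also differed along the sort. The endothelial list includes ENG, which encodes the sorted protein, so its difference was given by the sort. It also includes the gate genes PECAM1 and CD34. Over all genes at or above 1 FPKM, 5.65% were higher and 6.88% lower in CD105high than in CD105neg. Of 12 endothelial marker genes, 10 were at least 1.5-fold higher in FPKM + 1. The other 2 were EGFL7, at 557.5 in CD105neg, 629.7 in CD105low and 528 FPKM in CD105high, and CLDN5, at 0.677, 1.31 and 1.05 FPKM. The list summed to 1289 in CD105neg, 1737 in CD105low and 1782 FPKM in CD105high, of which KDR alone gave 430.5, 644.4 and 712.7 FPKM. All 8 markers of red cells and megakaryocytes that reached 1 FPKM were lower in CD105high. Of those below 1 FPKM, GP9 rose, at 0.144 in CD105neg, 0.297 in CD105low and 0.367 FPKM in CD105high. HBZ, HBA1 and HBA2 were at or below 0.0518 FPKM in CD105neg and listed at 0 in the other libraries. All 12 listed markers summed to 69.8, 26.2 and 13.2 FPKM in the same order of libraries. Of 6 mesenchymal markers that reached 1 FPKM 4 were lower, and the 8 listed summed to 155, 136 and 97.9 FPKM. Of 6 pluripotency and epithelial markers that reached 1 FPKM 1 was lower, with sums of 103, 94.3 and 84.1 FPKM. The 12 leukocyte markers summed to 3.59, 4.13 and 4.85 FPKM. Of these 12, FCGR3A, CD3E, MPO and LILRA4 were listed at 0 in all 3 libraries. PTPRC, the pan-leukocyte gene, was listed at 0 in CD105high and CD105low and at 0.00379 FPKM in CD105neg, and CLEC4C, which like LILRA4 marks plasmacytoid dendritic cells, at 0.0373 FPKM in CD105high and at 0 in CD105neg and CD105low. The macrophage receptor gene CSF1R stood at 0.0147 in CD105neg, 0.025 in CD105low and 0.207 FPKM in CD105high, LYZ at 1.41, 2.54 and 2.35 FPKM, and AIF1 at 1.53, 1.32 and 1.93 FPKM. In such bulk libraries a different share of cells and a different amount of RNA per cell cannot be told apart, and the part of these cell types in the differences of the interferon-induced genes was not tested.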

How the data were processed

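RNA-seq was analysed for 3 sorted populations with 1 library each, grouped by the samples' own labels. Per the labels' protocols, 2 ug of total RNA went into each TruSeq RNA library. BWA, Bowtie, RSEM and hg19 appear in the submitters' processing notes with no version, role or order. The annotation and filters used by the authors are not stated in the labels. The deposited values, 18345 genes per library, carry no unit and were treated as FPKM scaled by the authors. Multiplied by length, 41.1% to 46.5% of the low values of single-transcript genes fall on whole steps (within 0.04 of a step), against a median of 6.22% to 6.47% for other step sizes, which shows scaling by length but does not tell FPKM from TPM. If FPKM, the steps give CD105low 1.11 and CD105high 1.04 times the depth of CD105neg. Column totals were 289229, 284824 and 265618 in CD105neg, CD105low and CD105high.

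Log2 fold changes of FPKM + 1 were computed in Python 3.11.15 (pandas 2.3.3). Genes that reached 1 FPKM in any library were counted at 1.5-fold. Shared sequence is the share of 50-base pieces, every 40 bases of GENCODE 29 transcripts, that occur in another gene; members share at most 4.07%. Coordinates of the printed sequences are RefSeq's, on GRCh38.p14, another build than hg19. Fold calls, shared sequence, step search and motif search were tested on simulated data. All members and up to 4 genes per list with the largest absolute change were named, with 10 further genes whatever their values and the 5 nearest to IFIT1. Other genes named fall outside this rule and were chosen after their values were seen. Among them are the neighbours of the IFIT genes, IFI44L, IFNGR2, MAVS, IFIH1, DHX58, TICAM1, OASL, OAS2, MX2, the genes listed at 0 and the cell type markers. Members and lists were chosen with earlier results of these data known. The alternatives tried were other pseudocounts, centring, scaling to a common, higher total, other minimum levels, a 2-fold rule and leaving out genes that share sequence.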

Additional observations from a re-analysis of the deposited data

How the results depend on the processing

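With 1 library in each population no replicate could be left out. No paired analysis was possible because each group has a single library. In all settings tried, every member that was counted as apart was the higher one in the first-named population of its pair. For CD105high against CD105neg, 5 members were apart, 4 with a pseudocount of 5 and 2 among genes at or above 10 FPKM, where 2 members remain. For CD105low against CD105neg, 5 were apart, 2 with a pseudocount of 5, 2 at or above 10 FPKM, 6 after scaling to a common, higher total and 1 under the 2-fold rule. For CD105high against CD105low, 3 were apart, 1 with a pseudocount of 5, 4 on centring, 5 after scaling to a common, higher total, 1 at or above 10 FPKM and 0 under the 2-fold rule. Of the other interferon genes, 12 were apart in CD105high against CD105neg, 27 with a pseudocount of 0.1, 28 after scaling, 7 at or above 10 FPKM and 5 under the 2-fold rule. Counts over all genes moved as well. In CD105high against CD105neg 1421 were apart, 2073 with a pseudocount of 0.1 and 595 with one of 5. After scaling 2240 were apart, at or above 10 FPKM 746 and under the 2-fold rule 363. Scaling gave 1277 in place of 715 in CD105low against CD105neg, and 743 in place of 382 in CD105high against CD105low. The scaling raises all values against the fixed pseudocount and minimum, so that more genes reach the minimum (93 in place of 77, and all 10 members). Signs turned for small differences only: IFI27 in CD105high against CD105neg (0.091 on centring, 0.090 on scaling), and IFIT5 (0.091 and 0.075) and MX1 (0.013 on centring) in CD105high against CD105low. MX1 passed 1.5-fold with a pseudocount of 0.1 in CD105high against CD105neg (0.76) and in CD105low against CD105neg (1.02), and after scaling in CD105low against CD105neg (0.69). Fragment numbers behind the values were not analysed here, which limits all statements on genes near or below 1 FPKM.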

Other observations

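The response element core was also set against the fold changes of all genes, as a description with no test. Of 331 genes at or above 1 FPKM with a match in a start-site window, 8.76% were at least 1.5-fold higher and 6.65% lower in CD105high than in CD105neg, beside 5.51% and 6.35% of all 8855 genes with a window. Without the members and the interferon lists other than MHC class I, 295 genes with a match were left, of which 6.78% were higher and 7.12% lower. In CD105low against CD105neg the shares higher were 7.55% with a match, 5.76% among these 295 genes and 3.96% over all genes with a window. The shares lower were 3.02%, 3.05% and 1.94%. In CD105high against CD105low the shares higher were 2.72%, 1.02% and 1.04%, and the shares lower 2.11%, 2.03% and 2.12%. Among genes with a match, the middle log2 fold change (median) was -0.07 in CD105high against CD105neg, 0.02 in CD105low against CD105neg and -0.09 in CD105high against CD105low, beside -0.09, 0.02 and -0.10 over all genes with a window.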
